A study of Mus musculus with 6 samples.

Results

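The 7 genes described here are 1500015O10Rik, Scara5, Sidt1, Fcgrt, Ranbp3l, Cap1 and Cldn11. The study lists them among genes that Bapx1 represses in the mouse vertebral column and that have a binding site of the factor close by. They were chosen by the deposited embryo Bapx1 peaks: a summit, the highest point of a peak, lies in the gene body or within 100 kb of either end of it. The list holds 32 genes, 27 of them repressed. Of the 26 repressed genes found in the annotation, 18 have such a summit, and the 7 were taken from these 18. Embryo summits of the 7 number 9 of 2815 in the whole embryo peak list, and the same window holds a summit at 5588 of 22225 protein-coding genes (25.1%). The presence of these summits and their enrichment over the embryo control chose the genes, so both are given as a description.

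The series holds 6 chromatin immunoprecipitation sequencing (ChIP-seq) libraries, 1 per condition, and 4 of them were used. From E12.5 vertebral column of CD1 mice there is a Bapx1 library, in which the endogenous protein carries an S-peptide tag and was precipitated with an antibody against that tag, and a control library, in which the same antibody was used on wildtype embryos without the tag. From NIH3T3 cells, a mouse fibroblast line, there is a library of overexpressed V5-tagged Bapx1 precipitated with a V5 antibody, and a control precipitated with the same antibody, whose cells one label gives as transfected with an empty vector and another as wild type. The labels title both controls as input, while their descriptions name the antibody pulldowns given here. Vertebral columns of many embryos were pooled for each embryo library, and in NIH3T3 the factor was overexpressed from a plasmid in a fibroblast line. The libraries hold between 9124697 and 24855032 tags, the mapped reads of 35 bases. ChIP libraries carry no expression, so neither the tissue label nor the repression of the 7 genes could be checked against transcripts here.

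Bapx1, also named Nkx3-2, is a homeobox transcription factor of the NK family, known as a repressor that keeps cartilage cells of the developing vertebral column from maturing early. Such a factor binds short DNA words, often far from the start of the gene it acts on. A ChIP peak is taken to mark where the precipitated protein was attached to DNA, not which gene responds. The study describes the binding word as T(G/A)AGTG, that is TGAGTG or TAAGTG, which read CACTCA or CACTTA on the other strand. The 7 genes have varied roles. Fcgrt encodes the heavy chain of the neonatal Fc receptor, which carries IgG and albumin across and back out of cells, and Scara5 encodes a class A scavenger receptor that takes up ferritin. Sidt1 encodes a membrane protein related to the worm double-stranded RNA channel SID-1, and Cldn11 a claudin of the tight junctions of myelin and Sertoli cells. Cap1 encodes an actin-binding protein that speeds filament turnover, Ranbp3l a relative of the nuclear export cofactor Ranbp3, and 1500015O10Rik, named Ecrg4 in RefSeq, a secreted peptide precursor.

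The sequences below are shown because they hold the binding word at a Bapx1 summit near the 7 genes. They come from the + strand of the mm9 genome, each is centred on a summit or on the word, and capitals mark the word. The first 4 belong to embryo summits, and the Fcgrt site is given as a pair of short pieces because its window reaches an untranslated stretch of Prrg2. The fifth, from the embryo summit of 1500015O10Rik, is shown as a site with many tags and no word within 50 bp. The last 3 are from NIH3T3 peaks inside Cap1, Cldn11 and Ranbp3l.
Sidt1 embryo summit, chr16:44382081-44382181: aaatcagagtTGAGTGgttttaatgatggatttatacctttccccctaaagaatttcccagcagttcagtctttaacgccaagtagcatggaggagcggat
Cap1 embryo summit, chr4:122662470-122662570: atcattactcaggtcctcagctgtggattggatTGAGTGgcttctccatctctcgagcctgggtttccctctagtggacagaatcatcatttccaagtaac
Fcgrt embryo summit, first word, chr7:52317691-52317720: ccttcgagtagtCACTCAcgtttccggggg
Fcgrt embryo summit, second word, chr7:52317729-52317758: agaagaagaaagCACTTAccaagccaggcg
1500015O10Rik embryo summit, chr1:43752003-43752103: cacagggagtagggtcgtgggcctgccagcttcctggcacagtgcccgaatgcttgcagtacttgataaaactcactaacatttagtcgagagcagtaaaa
Cap1 intron, NIH3T3 peak, chr4:122553613-122553713: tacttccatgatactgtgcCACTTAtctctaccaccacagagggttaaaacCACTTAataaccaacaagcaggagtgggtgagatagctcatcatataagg
Cldn11 intron, NIH3T3 peak, chr3:31059739-31059839: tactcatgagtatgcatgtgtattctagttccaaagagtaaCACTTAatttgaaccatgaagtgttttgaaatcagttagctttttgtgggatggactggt
Ranbp3l intron, NIH3T3 peak, chr15:8919806-8919906: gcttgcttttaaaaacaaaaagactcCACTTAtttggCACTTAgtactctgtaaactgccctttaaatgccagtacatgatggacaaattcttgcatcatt

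The first question was where the 9 embryo summits lie relative to the genes they were linked to. None lay within 5 kb of the transcription start site (TSS) of its own gene. Of the 9 summits, 4 were in introns and 5 between genes. Only those at Ranbp3l and 1500015O10Rik had the gene's own TSS as the nearest one of any gene. The other 7 were closer to the TSS of a neighbour, and 3 of 9 were within 5 kb of some TSS, against 27.2% of the 2815 embryo summits. The median distance to the nearest TSS of any gene was 10.4 kb for the 9 and 19.3 kb for the whole list.

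**Figure D1:**
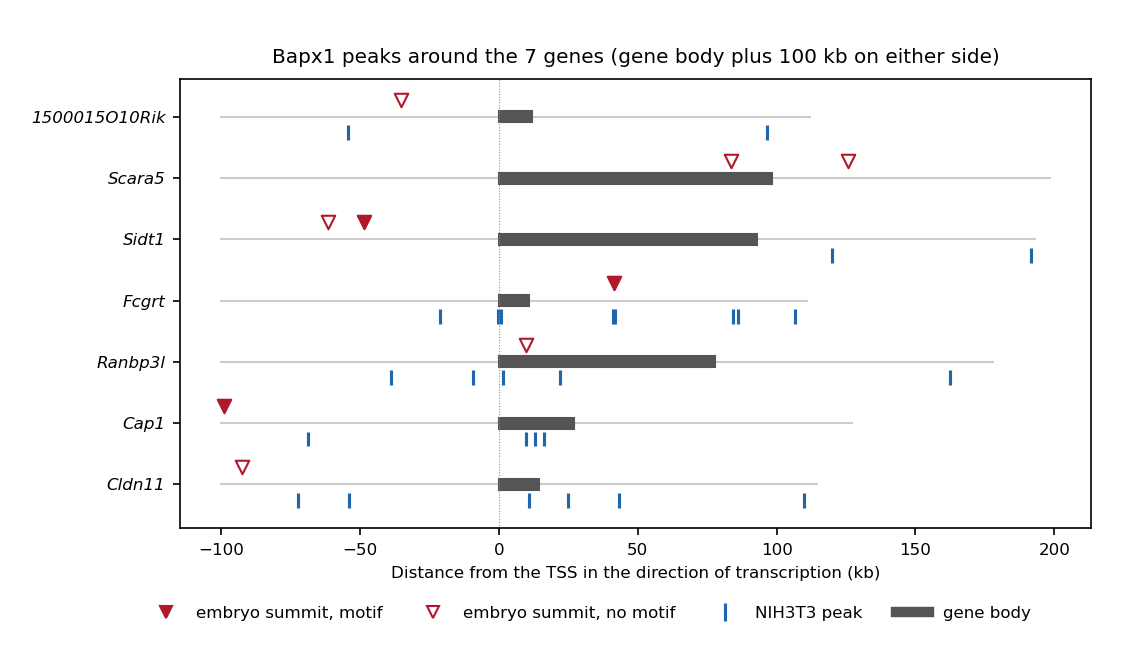
Positions of embryo Bapx1 summits (red triangles, filled where the word lies within 50 bp) and NIH3T3 Bapx1 peaks (blue ticks) around the 7 genes. The horizontal axis is the distance from each gene's TSS in kb in its direction of transcription, grey bars are gene bodies and thin lines the windows searched; Scara5 has 2 embryo summits and no NIH3T3 peak, while Fcgrt has 1 embryo summit and 8 NIH3T3 peaks.

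Ranbp3l (chr15:8918426-8996300, + strand) had the closest summit, in its own intron 9.7 kb downstream of its TSS. The site of 1500015O10Rik (chr1:43787447-43799423, + strand) lay between genes, 35.4 kb upstream. Scara5 (chr14:66285240-66383663, + strand) had one summit in its own intron 83.7 kb from its TSS and another beyond its end at 125.8 kb, 13614 bp from the TSS of Pbk, a mitotic kinase gene. Ranbp3l and Scara5 were thus the only members with a summit inside the gene itself.

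The sites of the other 4 genes were at or near other genes. Those of Sidt1 (chr16:44240293-44333309, − strand) were both upstream: one at 48.8 kb in an intron of the centriole gene Spice1, 3366 bp from its TSS, and one at 61.5 kb, 76 bp from the TSS of Wdr52. The Fcgrt site (chr7:52348363-52359192, − strand) was 41.5 kb downstream in an intron of Prrg2, 56 bp from the Prrg2 TSS, with 3 other TSS between it and that of Fcgrt. The site of Cap1 (chr4:122536290-122563299, − strand) was 99.2 kb upstream, with the Myc family gene Mycl1 nearest at 10375 bp. That of Cldn11 (chr3:31048868-31063246, + strand) was 92.5 kb upstream, 18952 bp from the TSS of Prkci, an atypical protein kinase C gene.

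The window limit mattered most for Cap1 and Cldn11, whose summits lay 99.2 and 92.5 kb from the gene body against a limit of 100 kb. The nearest summits outside the limit were 122.6 kb from Fcgrt and 127.0 kb from Cldn11, and those of the other 5 genes were between 136.0 and 305.2 kb away. The windows of the 7 genes also hold the TSS of between 1 and 15 other protein-coding genes, with 15 in that of Fcgrt.

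Tags were recounted within 200 bp of each summit, and the ChIP to control ratio was scaled to all tags on the chromosomes, with an exact binomial 95% interval that covers counting error only. A site was called where the ratio was at least 2 and its interval lay above 1. In the embryo pair 8 of 9 member sites were called, beside 84.9% of all embryo summits; the peaks were found on these same libraries. Over the 9 sites there were 221 Bapx1 and 47 control tags, a ratio of 3.92 (95% interval 2.85 to 5.49), and over all 2815 summits the ratio was 3.98 (3.91 to 4.05).

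The site of Sidt1 at 48.8 kb upstream had 42 tags in the embryo Bapx1 library, 6 in the wildtype control, 3 with V5-Bapx1 and 2 in the V5 control. Its embryo ratio was 5.83 (2.47 to 16.8), or 24.2 (4.01 to 987) within 100 bp, and it ranked 119 of 2815 by the deposited p. The site of 1500015O10Rik had 35, 5, 4 and 0 tags in the same order and an embryo ratio of 5.83 (2.27 to 19.1), ranking 207. These 2 sites were the only ones of the 9 at p of at most 1e-10, a level that 661 of the 2815 embryo peaks reach.

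At the second Sidt1 site, 61.5 kb upstream at Wdr52, the counts were 24 in the embryo Bapx1 library, 10 in its control, and 2 each in the NIH3T3 libraries. The embryo ratio of 2.0 (0.921 to 4.68) made it the site that was not called. The Scara5 intron site had 20, 5, 0 and 1 tags, a ratio of 3.33 (1.21 to 11.4), and the site past the end of Scara5 22, 1, 2 and 2 tags, a ratio of 18.3 (2.96 to 756). The latter rests on 1 control tag, and it was 7.77 (2.40 to 40.0) when tags were counted within 500 bp.

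Ranbp3l had 17 and 3 tags in the embryo libraries, 1 with V5-Bapx1 and 2 in the V5 control, with an embryo ratio of 4.72 (1.37 to 25.1). Cap1 had 20, 4, 6 and 3 tags, with an embryo ratio of 4.16 (1.4 to 16.8). Both sites had few tags in the NIH3T3 libraries. Cldn11 had 23, 8, 8 and 2 tags, with an embryo ratio of 2.39 (1.03 to 6.19), and Fcgrt 18, 5, 9 and 1, with 3.00 (1.07 to 10.3). In these last 2 the lower bound was close to 1, and counting within 500 bp in place of 200 bp gave 1.54 (0.872 to 2.80) at Cldn11 and 1.94 (0.957 to 4.20) at Fcgrt, where neither was called. Within 100 bp Cldn11 had 4.37 (1.48 to 17.5) and was called, and Fcgrt 2.92 (0.916 to 12.2) and was not.

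**Figure D2:**
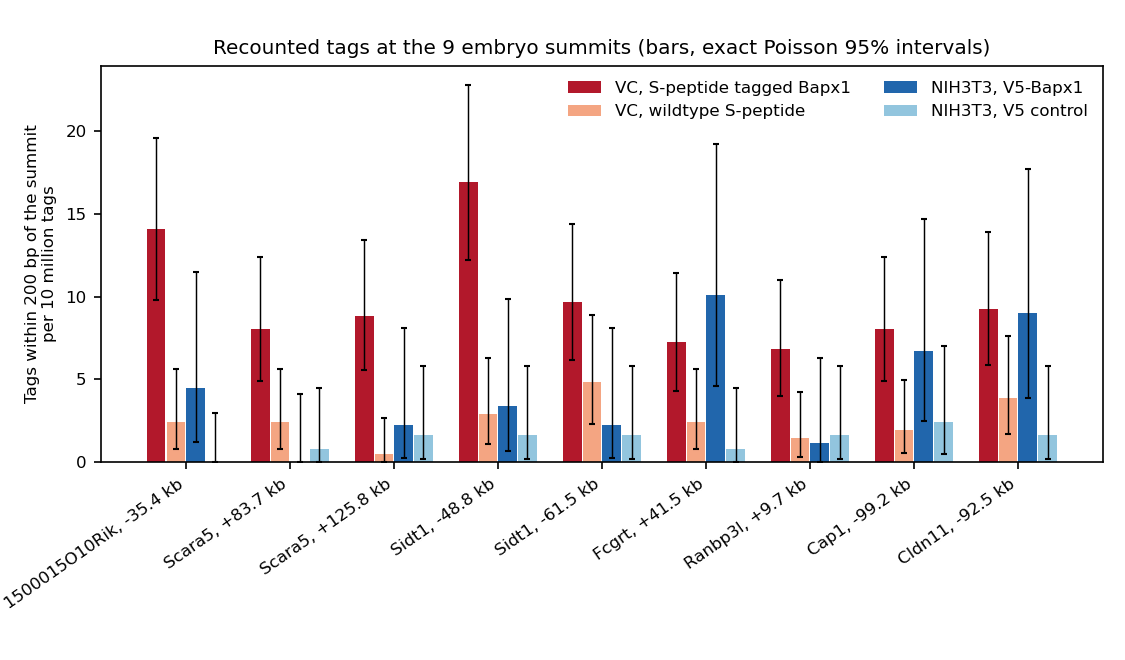
Tags within 200 bp of each of the 9 embryo summits, per 10000000 tags, in the 4 libraries; bars are the single library's value and lines its exact Poisson 95% interval. The embryo Bapx1 bar is the highest of the 4 at all sites but Fcgrt, where V5-Bapx1 in NIH3T3 is higher with an overlapping interval.

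The deposited peak values placed the 9 sites near the middle of the embryo list. The deposited tag count had a median of 18 (13 to 42), against 20 in the list, and the fold over local background a median of 7.82 (6.09 to 18.6), against 8.32. The deposited false discovery rate (FDR), found by exchanging ChIP and control, was between 24.4% and 69.1% for the 9, with a median of 64.0% against 61.1%. Of the 9, 2 had an FDR of at most 50%, beside 10% of the list: the Sidt1 site at 48.8 kb (24.4%) and that of 1500015O10Rik (39.4%). The lowest MACS score of the 9, which rises as the p of the peak falls, was 50.7 at the intron site of Scara5, just inside the limit for calling a peak.

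Tags on the 2 strands should flank a bound site, with + strand tags to its left and − strand tags to its right. Over the 9 sites in the embryo Bapx1 library, 91 of the 5′ ends on the + strand were left of the summit and 26 right of it, and on the − strand 26 were left and 78 right. The summits were placed on the tags of this same library, so this order is a description of the peaks.

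**Figure D3:**
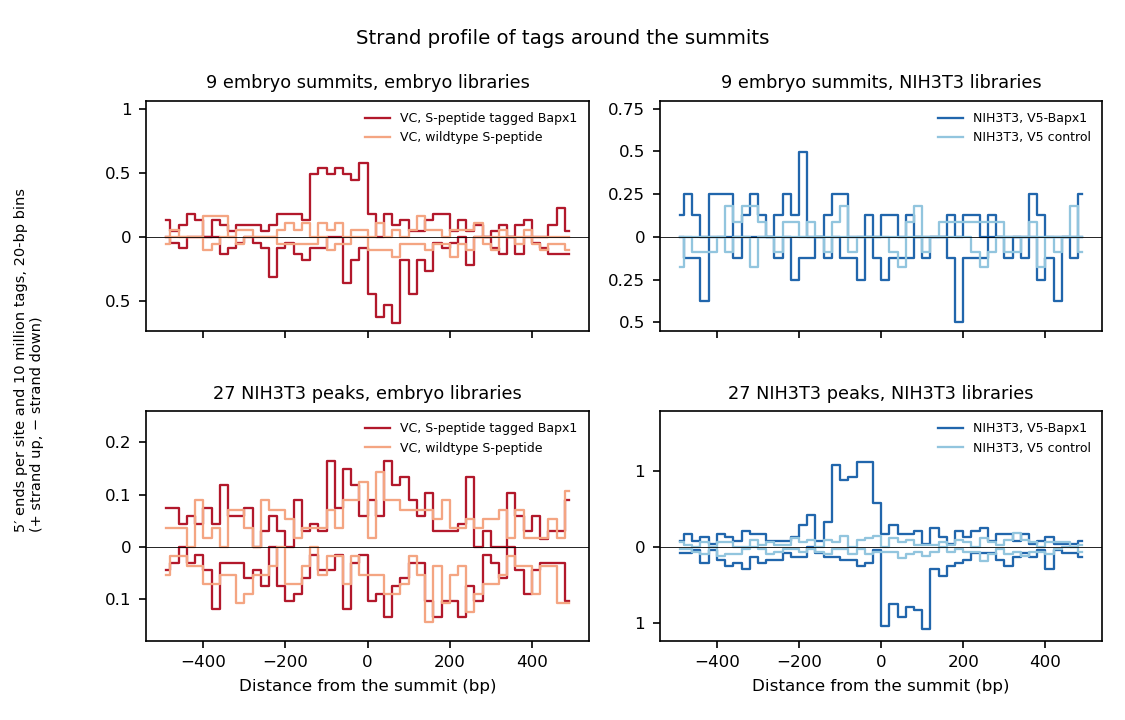
Mean number of tag 5′ ends per site and 10000000 tags in bins of 20 bp around the 9 embryo summits (top) and the 27 NIH3T3 peaks (bottom), with the + strand above and the − strand below 0 and a separate vertical scale per panel. The embryo Bapx1 library at embryo summits and the V5-Bapx1 library at NIH3T3 peaks show + strand tags left and − strand tags right of the summit.

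The binding word was not part of the rule that chose the genes. It lay within 50 bp of 3 of the 9 summits (33.3%, exact 95% interval 7.49 to 70.1), against 31.3% of all embryo summits. In stretches of the same length 500 bp to either side it was in 3 of 18 for the members and in 10.5% for the list. With 9 summits the share cannot be told apart from that of the list or of the flanks. The 3 with the word were Sidt1 at 48.8 kb (TGAGTG at -37.5 bp from the summit), Cap1 (TGAGTG at -14.5 bp) and Fcgrt, which had both CACTCA and CACTTA, as printed above. In all 3 the TGAGTG form was present, and the TAAGTG form only at Fcgrt; of the embryo list 18% had TGAGTG and 15.3% TAAGTG.

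Tag ratios were compared between sites with and without the word. In the embryo pair the 3 sites with it had 80 and 15 tags, a ratio of 4.44 (2.54 to 8.31), and the 6 without it 141 and 32 tags, a ratio of 3.67 (2.49 to 5.57). The intervals overlap. In RefSeq promoters, which run from 250 bases before to 50 after each start on GRCm38.p6, the word was in those of Sidt1 (TGAGTG) and Cap1 (CACTCA), 2 of the 6 members matched, beside 23.9% of 32851 promoters. Scara5 had no entry.

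The NIH3T3 libraries were not part of the rule that chose the genes and were used to ask whether the same sites hold V5-Bapx1. The 7 genes were, however, chosen with earlier results of these data known. The V5-Bapx1 pair was called, with at least 2-fold and an interval above 1, at 2 of 9, beside 11% of all embryo summits. At Fcgrt the 9 V5-Bapx1 tags against 1 control tag gave a ratio of 12.6 (1.74 to 552), and at Cldn11 the 8 against 2 gave 5.60 (1.12 to 54.1). Within 100 bp neither was called, with 5.60 (0.554 to 276) at Fcgrt and 7.0 (0.783 to 331) at Cldn11, and within the deposited peak limits both had 7.0 (0.783 to 331). Within 500 bp Fcgrt was called with 5.83 (2.33 to 17.4) and Cldn11 was not, with 2.33 (0.956 to 6.04). Both calls thus depend on the window.

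Elsewhere the depth did not allow a statement. Cap1 had 6 tags against 3, a ratio of 2.80 (0.598 to 17.3). The site of 1500015O10Rik had 4 against 0, or 1.87-fold against a floor of 3 control tags. The exact lower bound was 0.924 and the site was not called. At the 2 Scara5 sites, both Sidt1 sites and Ranbp3l both libraries had at most 3 tags, so no ratio is given. Summed over the 9 sites there were 35 V5-Bapx1 and 15 control tags, a ratio of 3.26 (1.74 to 6.43) against 1.69 (1.64 to 1.74) over all embryo summits, and 2.60 (1.31 to 5.38) without Fcgrt. The interval of the sum without Fcgrt includes the value of the list.

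Only the Fcgrt peak overlapped a NIH3T3 peak by at least 1 bp, 1 of 9 beside 6.39% of the embryo peaks. It touched 2 of them, at 41.6 and 41.2 kb downstream of the Fcgrt TSS, both at the start of Prrg2. Their V5-Bapx1 and control tags were 10 and 1 (14.0, 1.99 to 607) and 12 and 3 (5.60, 1.51 to 30.9). Neither shared 50% of the shorter interval with the embryo peak, and neither summit was within 100 bp of the embryo one. The other sites were farther from a NIH3T3 peak: 8.3 kb at Ranbp3l, 10.7 kb at Cldn11, 18.9 kb at 1500015O10Rik, 30.4 kb at Cap1, 82.8 and 95.5 kb at Sidt1, and 353.6 and 395.8 kb at Scara5. The median of 30.4 kb was close to the 31.1 kb of the list.

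Peaks of V5-Bapx1 in NIH3T3 were then counted in the same windows. They numbered 27, at 6 of the 7 genes (85.7%), beside 81.0% of protein-coding genes. Fcgrt had 8, Cldn11 6, Ranbp3l 5, Cap1 4, and 1500015O10Rik and Sidt1 2 each. Scara5 had none in a window with 958 V5-Bapx1 and 1441 control tags, whose ratio was 0.93 (0.856 to 1.01). V5-Bapx1 coverage of this window was the lowest of the 7, at 3.61 tags per kb and 10000000 tags. The V5 control had 3.88 there. Fcgrt had 7.34 and 6.17 in the same order, and Sidt1, with its 2 peaks, 3.95 and 3.6. The embryo control had 4.74 at Scara5 and 5.41 at Fcgrt. Whether local coverage bears on the peak counts was not tested. The density was 15.6 peaks per Mb of window, against 11.1 over the windows of all protein-coding genes, and 8 of the 27 were from Fcgrt, in a window with many genes.

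Of the 27 peaks 14 were within 5 kb of a TSS, beside 25.8% of the NIH3T3 list. All 8 at Fcgrt, whose window holds 15 other TSS, were among them, and at the other 5 genes 6 of 19 (31.6%) were. In introns were 16 of the 27, 13 had the TSS of the member as the nearest one, 7 were inside the member gene and 3 within 5 kb of its TSS, 2 at Fcgrt and 1 at Ranbp3l. The word lay within 50 bp of 14 of the 27 (51.9%, exact 95% interval 31.9 to 71.3), beside 64.4% of the list. The TAAGTG form was at 10 and the TGAGTG form at 4, and in the NIH3T3 list 57.0% and 15.1% had these forms.

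The peak of smallest p was in Cap1 itself, in an intron 9.6 kb downstream of its TSS. It had 41 V5-Bapx1 and 11 control tags, a ratio of 5.21 (2.63 to 11.2), and 2 copies of CACTTA, printed above. The embryo libraries had 5 and 4 tags there. At Cldn11 the NIH3T3 peak closest to the TSS and of smallest p was in an intron 10.9 kb downstream, with 18 against 3 tags (8.39, 2.45 to 44.5), 1 CACTTA, and 8 and 4 embryo tags. Both genes thus had a NIH3T3 peak inside the gene and an embryo summit over 90 kb upstream.

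At Ranbp3l the peak nearest the TSS, 1.4 kb inside the gene, had 13 against 3 tags (6.06, 1.67 to 33.2) and 2 copies of CACTTA. That of smallest p was 38.8 kb upstream, with 14 tags against 0 and no word. This was 6.53-fold against the floor of 3, with an exact lower bound of 4.64. In the embryo libraries these positions had 3 and 2, and 1 and 2 tags. At Fcgrt the nearest peak was 0.2 kb upstream of the TSS, with 13 against 2 tags (9.09, 2.06 to 83.0), and 10 and 9 tags in the embryo. The peak of smallest p in its window was 86.1 kb downstream by Rras, a small GTPase gene, with 19 against 0 tags. This was 8.86-fold against the floor, with an exact lower bound of 6.53. Fcgrt was the one member with a NIH3T3 peak at its own start.

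At 1500015O10Rik the nearest NIH3T3 peak, also that of smallest p, was 54.3 kb upstream, with 11 against 0 tags, and 4 and 3 in the embryo. This was 5.13-fold against the floor, with an exact lower bound of 3.51. At Sidt1 the nearest NIH3T3 peak, also that of smallest p, was 120.0 kb downstream, in Gm608. It had 9 against 2 tags (6.30, 1.30 to 59.9), and 9 and 2 in the embryo. Neither held the word within 50 bp. In both genes the embryo site and the NIH3T3 peak lay at different places, and at Sidt1 on opposite sides of the TSS.

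Over the 27 peaks V5-Bapx1 and control had 391 and 87 tags, a ratio of 6.29 (4.97 to 8.03), and 26 were called, beside 95.8% of the list; the exception was 16.2 kb into Cap1 (11 against 5, 3.08, 0.986 to 11.3). The embryo libraries, which did not call these peaks, had 202 and 135 tags there, a ratio of 1.25 (0.997 to 1.56), against 1.12 (1.11 to 1.13) over the whole NIH3T3 list. None of the 27 was called in the embryo pair, beside 2.19% of the list. Without the 2 at Prrg2 that overlap the embryo peak the embryo ratio was 1.17 (0.926 to 1.48). Both intervals include 1 and the value of the list.

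**Figure D4:**
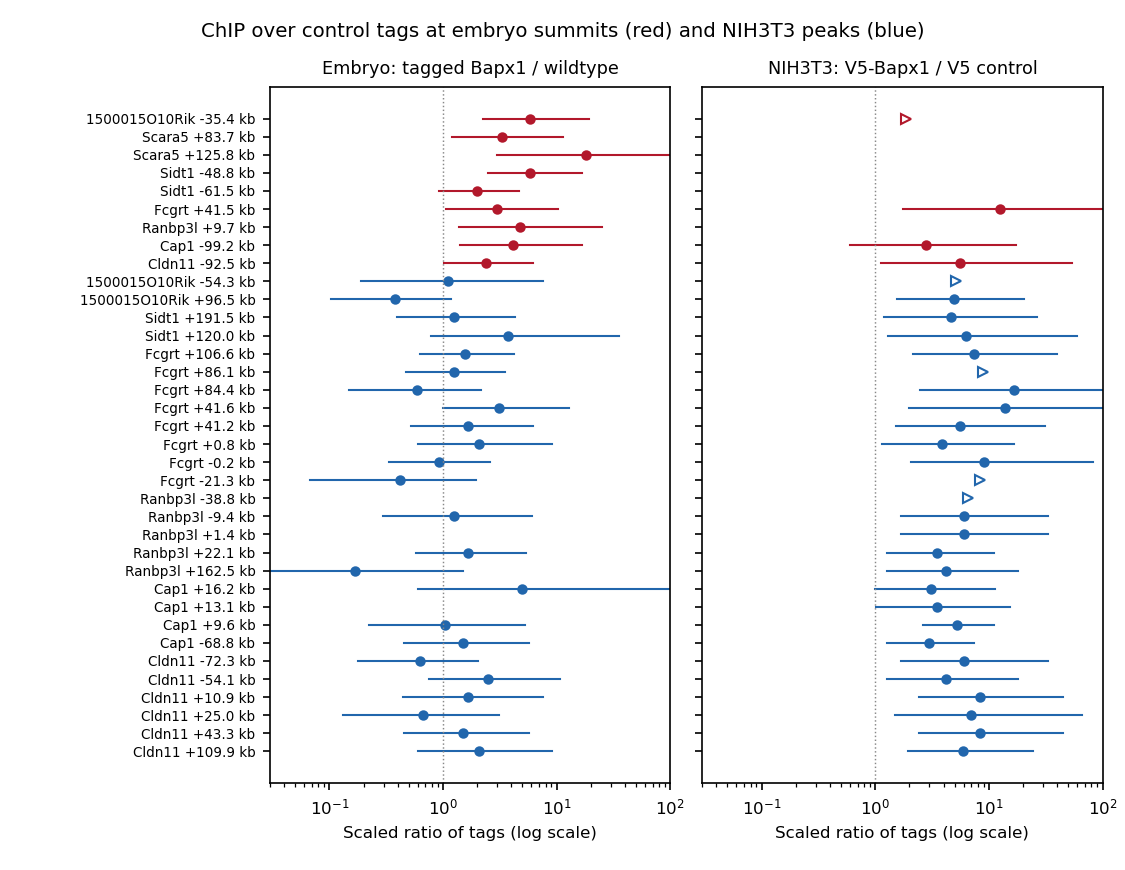
Scaled ChIP to control ratios with exact binomial 95% intervals at the 9 embryo summits (red) and 27 NIH3T3 peaks (blue). The embryo pair is left and the NIH3T3 pair right, on a log axis cut at 0.03 and 100. Open triangles are ratios against a floor of 3 control tags where the control had 0 tags, and are not lower bounds. A point is missing where both counts were at most 3. Red points are right of 1 on the left panel and blue points right of 1 on the right panel, in each case on the libraries that called the peaks. Of the 24 blue points on the left panel, 7 are left of 1 and the others right of it.

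Few of the 7 gene starts were called. Within 500 bp of the TSS 0 of 7 were called in the embryo pair, beside 3.21% of protein-coding genes, with ratios from 0.729 at Fcgrt to 1.25 at Cap1. In the NIH3T3 pair 1 of 7 was called, beside 13.3%: Fcgrt, with 21 against 6 tags (4.90, 1.91 to 14.8). Cap1 had 14 against 9 (2.18, 0.877 to 5.70), and Ranbp3l 4 against 16 (0.35, 0.0851 to 1.08). Over the whole windows the embryo ratio was between 0.966 and 1.05 for all 7 genes, and the NIH3T3 ratio between 0.93 and 1.19.

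The members were set beside the other genes of the same list and their own relatives. Of the other repressed genes in the annotation, 11 of 19 had an embryo summit in the window (57.9%), with 16 summits. The word was at 3 of these 16 (18.8%). Of the 16, 0 were called in the NIH3T3 pair and 0 overlapped a NIH3T3 peak, beside 11% and 6.39% of all embryo summits. The 5 activated genes all had a summit, and 1 of their 5 summits had the word and 1 was called in the NIH3T3 pair. The study drew this list from its expression arrays and its embryo Bapx1 sites, so the counts of genes with a summit are not independent of the embryo peaks. The rest of the 19 had no deposited embryo summit in the window, although the study lists them with a site within 100 kb of the TSS. Among the other repressed genes, the sites most like the members over the 4 libraries, by Euclidean distance of log2(tags per 10000000 + 1) from the members' mean, were those of Fzd6 (0.470), Ebf2 (0.784), Slc22a6 (0.869), Ccdc3 (1.21) and Bapx1 itself (1.35), and the members' own distances ran from 0.841 for Sidt1 to 2.23 for Scara5.

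Of 35 genes taken as relatives of the 7, 10 had an embryo summit in the window (28.6%), beside the 25.1% of all protein-coding genes. The 35 include 4 iron genes and 6 genes for Fc receptors and partner chains, taken for a related function rather than as paralogs. They were 6 of 18 claudins, the junction proteins akin to Cldn11 (Cldn6, Cldn7, Cldn9, Cldn10, Cldn14 and Cldn22), the scavenger receptors Scara3 and Colec12 of 4, and the ferritin chains Fth1 and Ftl1 of 4 iron genes. Cldn6 and Cldn9 are neighbours with the same nearest summit. The paralogs Sidt2, Cap2 and Ranbp3 and the 6 genes for Fc receptors and their partner chains, B2m among them, had none. A NIH3T3 peak was in the window of 30 of the 35 relatives (85.7%), the same share as of the 7 genes. Of the 14 embryo summits of the relatives, 3 were called in the NIH3T3 pair and 2 overlapped a NIH3T3 peak.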

How the data were processed

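Per the methods, uniquely mapped reads with few mismatches were kept on mm9, and the authors called peaks with MACS for each ChIP library against its own control, at p of at most 1e-05. The deposited peak lists hold the tag count, a score (10 times −log10 p), the fold over local background as a ratio and the FDR in percent. The deposited tag files hold positions of mapped tags. The Sox9 and IgG libraries were not used, because their positions did not match mm9 in most windows.

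Tags were counted by the base 17 after the 5′ end, 1 per position and strand, on chromosomes 1 to 19, X and Y. The embryo files held no repeated tags, and those of V5-Bapx1 and the V5 control held 2.40% and 6.53%. The libraries had 24853758 (embryo Bapx1), 20702403 (embryo control), 8901095 (V5-Bapx1) and 12453788 (V5 control) tags. Sequences and gene models were from NCBIM37 (mm9) and GENCODE vM1, and promoters from RefSeq. Of the 23207 NIH3T3 peaks 2 on chrM were left out. Ratios have Clopper-Pearson intervals, counts Poisson intervals and a count of 0 a floor of 3. With 1 library per condition no test across samples was possible, and intervals measure counting error only. Other distance limits, counting windows, scalings, peak thresholds and overlaps were tried. Counting was tested on simulated data. Python 3.11.15, numpy 2.4.6, scipy 1.17.1 and pandas 2.3.3 were used.

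Named were all 7 members, every embryo summit in their windows with the nearest TSS, the nearest and the smallest-p NIH3T3 peak of each and any overlapping an embryo peak, up to 5 other repressed genes most like them, and relatives with a summit. Exceptions named for their values are the Cap1 peak at 16.2 kb and the peaks with opposite ratios. The members and lists were chosen with earlier results of these data known.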

Additional observations from a re-analysis of the deposited data

Results flagged for a closer look

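At 7 of the 24 NIH3T3 peaks near the 7 genes that have an embryo ratio the library pairs lay on opposite sides of 1, with a scaled ratio above 1 in NIH3T3 and below 1 in the embryo. The same held at 8072 of 18922 peaks with ratios in the whole NIH3T3 list (42.7%, against 29.2% for the 7 of 24), and the peaks were called on the NIH3T3 libraries, so that side was set by the calling. The other 3 of the 27 had at most 3 tags in each embryo library and no ratio. The difference between the pairs was not tested, since each has 1 library per condition. The embryo ratio was 0.379 against 4.90 in NIH3T3 at the peak 96.5 kb downstream of the 1500015O10Rik TSS, by Uxs1, which had 5 and 11 embryo tags. At Fcgrt it was 0.595 against 16.8 at 84.4 kb downstream and 0.926 against 9.09 at 0.2 kb upstream. At 21.3 kb upstream of Fcgrt it was 0.416 against 8.39. The latter is against the floor of 3, since the V5 control had 0 tags, and the exact lower bound was 6.15. At Ranbp3l it was 0.167 against 4.20 at 162.5 kb downstream, with 1 and 5 embryo tags. At Cldn11 it was 0.625 against 6.06 at 72.3 kb upstream and 0.666 against 7.0 at 25 kb downstream. The embryo interval included 1 at all 7.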

How the results depend on the processing

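Requiring p of at most 1e-10 left 2 of the 9 embryo summits and 6 of the 27 NIH3T3 peaks. With the gene body plus 50 kb 16 NIH3T3 peaks remained in the windows. No embryo peak overlapped a NIH3T3 peak by 50% of the shorter interval (0), and none had a summit within 100 bp (0). Windows of 100 kb from the TSS, 50 or 200 kb from the gene body, or protein-coding transcripts gave 6 to 13 embryo summits. The summed embryo ratio was 3.05 to 5.38 and the summed NIH3T3 ratio 2.25 to 3.51 over the other windows, scalings and tag sets; leaving out Fcgrt, chosen after seeing the data, gave 4.03 and 2.60. The word was at 44.4% of summits within 100 bp (44.3% of the list) and, followed by G, at 22.2% (12.3%). Of 50 values at single sites, 8 lost the call, all at Fcgrt and Cldn11 under other counting windows, and none reversed. The 50 include values of the second Sidt1 site and of the NIH3T3 ratio at Cap1. Neither was called at the main setting, so these had no call to lose. Within 100 bp the embryo ratio was 24.2 at the Sidt1 site at 48.8 kb, 10.8 at Ranbp3l, 7.08 at Cap1, 4.37 at Cldn11, 5.41 at the Scara5 intron site, 10 at the distal Scara5 site and 2.92 (0.916 to 12.2) at Fcgrt, where the call ended; at peak limits it was 4.79 at Cldn11. No paired analysis was possible because each condition has 1 library and the labels give no replicate numbers. At the 9 embryo summits V5-Bapx1 had 0 to 9 tags, which limits what these sites can show.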
